A study of Mus musculus with 4 samples.

Results

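Alveolar type 2 cells of the lung make pulmonary surfactant, and 9 genes that serve this work were followed across Fgf8 hypomorph and wild type fetal lungs: Sftpa1, Sftpd, Sftpb, Sftpc, Napsa, Abca3, Lpcat1, Lamp3 and Slc34a2. They were found by gene name among the spots that were not controls, with Lpcat1 written under its older name Aytl2, and all of their probes were kept. This gave 17 of the 41174 probes on the array and 9 of its 28478 gene names. Abca3 and Lamp3 had 4 probes each, Sftpa1 and Slc34a2 had 2 each, and the other members had 1.

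Each of 4 arrays compared a pool of fgf8 hypomorph lungs, genotype Fgf8H/-, labelled with Cy5, with a pool of lungs of wild type littermates, genotype Fgf8+/+, labelled with Cy3. All were taken at E18.5, shortly before birth, on the strain background that the labels spell c57nl7/sv129, and a pool held the lobes of 3 lungs cut free from the large airways and vessels. The hypomorph carries a weakened Fgf8 allele (H) over an allele written as a minus sign, and the sample titles call it AP/N without saying what the letters stand for. Since whole lobes of pooled animals were extracted, a lower signal from fewer type 2 cells and one from less RNA per cell cannot be told apart. Hypomorph RNA was always in Cy5, so the effect of the dye on a probe and that of the genotype cannot be told apart either.

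Surfactant is a film of phospholipid and protein that lowers the surface tension of the air spaces, and its store is filled in the last days before birth. Its lipids are made in the type 2 cell, pumped into lysosome-like storage organelles called lamellar bodies by the transporter ABCA3, and secreted from there. The hydrophobic proteins SP-B and SP-C (Sftpb, Sftpc) spread the film, whereas the collectins SP-A and SP-D (Sftpa1, Sftpd) bind microbes and act in surfactant turnover. FGF8 is a secreted growth factor of the embryo. The transcription factors NKX2-1 and FOXA2 bind the promoters of several surfactant protein genes.

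Of the 9 members, 6 had a promoter entry in RefSeq (build GRCm38.p6), and the sequences of Sftpa1 and Sftpb are shown because these genes are textbook targets of the factors named above. Each line gives the 250 bases before the start of the gene, 5′ to 3′ on the strand of the gene, with matches to the motifs searched in capitals. The Sftpa1 window is chr14:41131538-41131787 on the plus strand and the Sftpb window is chr6:72304360-72304609 on the plus strand.
Sftpa1: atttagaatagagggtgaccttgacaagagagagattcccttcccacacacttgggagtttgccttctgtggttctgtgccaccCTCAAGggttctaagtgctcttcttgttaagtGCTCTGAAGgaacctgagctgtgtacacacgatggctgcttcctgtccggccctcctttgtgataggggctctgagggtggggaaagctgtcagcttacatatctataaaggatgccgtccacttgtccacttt
Sftpb: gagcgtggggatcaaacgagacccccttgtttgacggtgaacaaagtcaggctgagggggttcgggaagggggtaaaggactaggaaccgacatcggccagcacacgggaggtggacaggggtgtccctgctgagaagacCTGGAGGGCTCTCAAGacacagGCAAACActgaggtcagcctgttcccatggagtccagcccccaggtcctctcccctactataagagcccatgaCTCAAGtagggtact
The motifs were the NKX2-1 core CTCAAG, a longer NKX2-1 form known from surfactant promoters, GCNCTNNAG, and the FOXA forms TGTTTGC and TGTTTAC, each searched on both strands.

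In the Sftpa1 window CTCAAG began 166 bases and GCNCTNNAG 134 bases before the start. In the Sftpb window GCNCTNNAG matched at 110 to 102 bases before the start on the minus strand and at 103 to 95 on the plus strand, where CTCAAG at 100 to 95 lay within it, and a second CTCAAG lay at 15 to 10. TGTTTGC matched there at 88 to 82 on the minus strand. TGTTTAC matched 92 to 86 bases before the start of Lamp3, and no motif matched the windows of Abca3, Lpcat1 and Slc34a2. Of 32851 promoter windows of this length, 13.3% held CTCAAG, 14.2% GCNCTNNAG, 4.3% TGTTTGC, 3.17% TGTTTAC and 30.3% any of them. A match describes the letters of the window and not binding.

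Every member probe was well above background in both genotypes on 4 of 4 arrays, so RNA of all 9 genes was measured in each pool. Signals of a pool are log2 values after background correction and loess normalization within the array. The mean signal of both channels was then quantile-normalized between arrays, which leaves each ratio unchanged. Whether the groups overlap across arrays rests on that step. The share of all probes whose groups do not overlap was not taken, so overlap is given as description only. A ratio is log2 of hypomorph over wild type, given as mean ± SD over n = 4 arrays unless another n is stated. A probe was called when limma's test of its ratio against 0, with Benjamini-Hochberg adjustment over all probes, gave an adjusted p under 0.05. The scanner software marks spots whose local background varies unusually, and bright spots carry many such marks. Among probes with a mean log2 signal of both channels (here brightness) above 15, 42.8% were marked on at least 2 arrays, against 4.82% of all probes. All marks on member spots concerned the background and none the spot itself. With marked spots left out, 13 member probes of 7 genes could be tested. Sftpc, Sftpd, the brighter of the Sftpa1 probes and 1 Abca3 probe had values only when marked spots were kept.

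With marked spots left out, 1 of the 13 member probes was called, which was lower in the hypomorph (7.69%), against 24.9% of all 30008 probes tested. At an unadjusted p under 0.05 there were 5. With marked spots kept, 6 of 17 were called, or 35.3%, against 26.8% of all 31371 probes. Of these, 3 were higher, where 13.9% of all probes were, and 3 were lower, where 12.9% were. At an unadjusted p under 0.05 there were 9. The median log2 ratio of the members was -0.13 with marked spots left out and -0.05 with them kept, and that of all probes was 0.00. The 6 calls belonged to 5 genes. Sftpc, Sftpa1 and an Abca3 probe were called higher, and Sftpd, a Lamp3 probe and another Abca3 probe were called lower. Sftpc is saturated in the hypomorph channel, and its direction is not settled. With saturated spots left out it has no value, and 5 of 16 member probes were called, 2 higher and 3 lower. The share of all probes called was not taken for that fit. Under median centring 8 of 13 were called, where 49.4% of all probes were (36.7% higher), and 11 of 17 with marked spots kept, where 51.1% were (38.3% higher). With marked spots kept, the split of higher and lower calls was 9 and 2 under median centring, 1 and 5 under a loess span of 0.1, and 1 and 3 with processed signals. The share of all probes called was not taken for a loess span of 0.1 or for processed signals. Those splits cannot be set against it. Without replicate 2, the member probes called numbered 0 with marked spots left out, where 5.23% of all probes were called, and 3 with them kept, where 7.53% were. With marked spots left out there were also 0 without replicate 3, where 7.71% of all probes were called, and 0 without replicate 4, where 15.8% were.

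**Figure D1:**
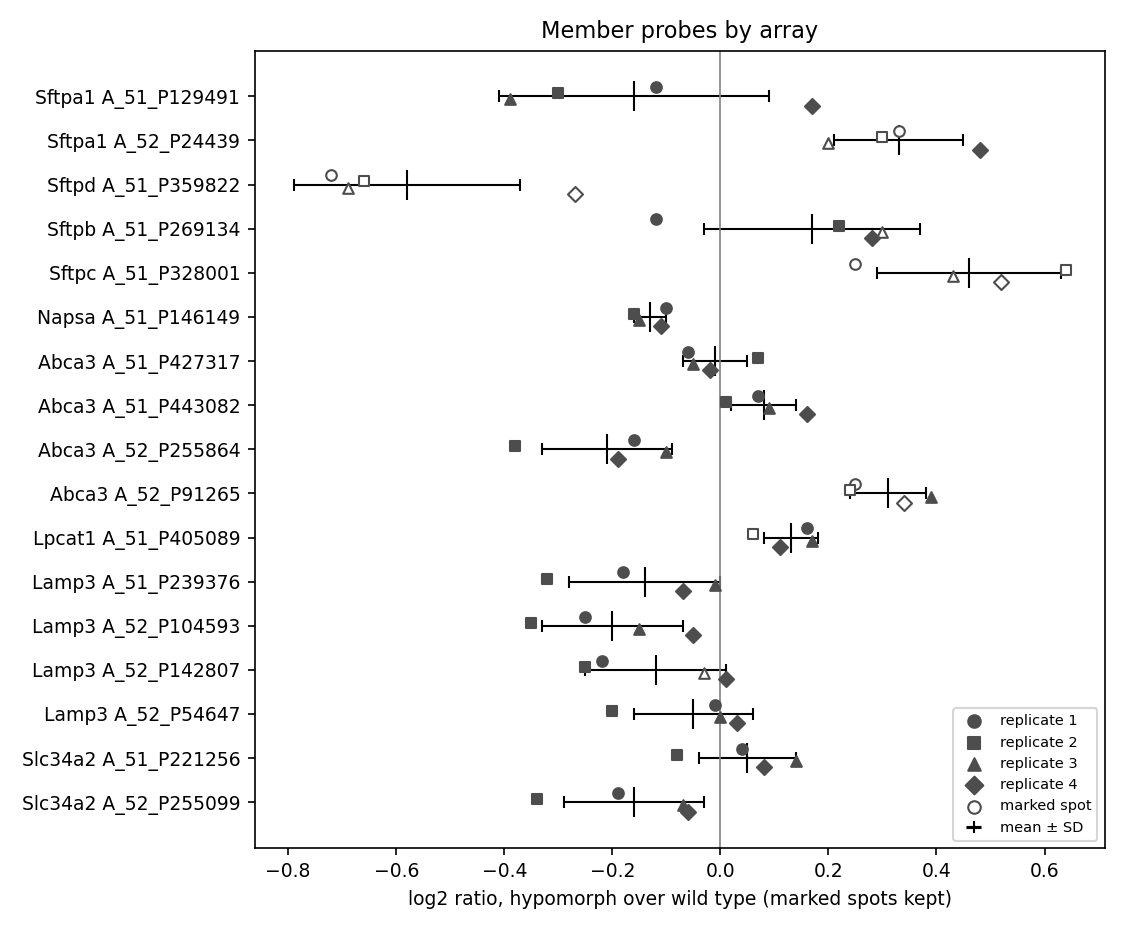
Log2 ratio of hypomorph over wild type (x axis) for each member probe (rows) on the 4 arrays, with marked spots kept. Symbols stand for replicates, open symbols for marked spots, and the bar for the mean ± SD. The 4 Sftpd points lie between -0.72 and -0.27 and the 4 Sftpc points between 0.25 and 0.64, while most other probes straddle or crowd 0.

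Sftpd encodes surfactant protein D, a collectin that binds microbial sugars and takes part in clearing surfactant lipid. Its probe A_51_P359822 lies on the minus strand of chromosome 14, at 40080953 to 40081012 in mouse build mm8. The hypomorph pools had log2 signals of 15.38, 15.39, 15.40 and 15.53, and the wild type pools had 16.10, 16.04, 16.08 and 15.80. Every hypomorph pool was below every wild type pool, and the narrowest gap was on the array of replicate 4. Sftpd fell in the hypomorph with a log2 ratio of -0.58 ± 0.21, which is 1.5-fold lower (95% interval of the log2 ratio -0.92 to -0.25, limma, adjusted p = 0.00634, below 0 on 4 of 4 arrays). Its spots were marked on all 4 arrays, so this value rests on marked spots kept. It was called under 17 of 18 alternatives, with log2 ratios between -0.70 and -0.54 in those, and only median centring in place of loess turned it, to 0.05 (adjusted p = 0.645).

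Because each array carries all members, the Sftpd ratio could also be set against other members of similar brightness within the array, a comparison that, like the other differences between probes given here, was chosen after the values were seen. The Sftpd ratio minus that of the Abca3 probe A_51_P443082 was -0.79, -0.67, -0.78 and -0.43 on the 4 arrays, a mean of -0.66 ± 0.17. Over 7 ways of processing it ranged from -0.68 to -0.64, and minus the Lamp3 probe A_52_P142807 it ranged from -0.48 to -0.43. These were the brightest probes of their genes, at a mean log2 signal of 15.84 and 15.89, beside 15.71 for Sftpd. A normalization that depends on brightness therefore moves them nearly alike. Napsa, Lpcat1 and Slc34a2 were not compared with Sftpd in this way. Minus the brighter Sftpa1 probe, A_52_P24439, it ranged from -1.02 to -0.79. Such a difference shows unequal change between probes and not which of them changed.

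Sftpa1 encodes surfactant protein A, the other collectin of surfactant, and its gene lies near Sftpd on chromosome 14. Its probes gave different answers. The brighter, A_52_P24439 at 40042931 to 40042990 (chromosome 14, mm8, plus strand), had log2 signals of 16.51, 16.38, 16.63 and 16.85 in hypomorph pools, against 16.18, 16.08, 16.43 and 16.37 in wild type pools. The hypomorph pool was the brighter on each array, although the groups overlap. The probe rose by 0.33 ± 0.12 in log2 ratio, 1.26-fold (adjusted p = 0.0105), with its spots marked on 3 arrays. Without replicate 2 it missed the threshold (adjusted p = 0.0586), and its log2 ratio was 0.09 when the loess span was 0.1 (adjusted p = 0.294) and 0.09 in the scanner's processed signals (adjusted p = 0.358).

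The other Sftpa1 probe, A_51_P129491 at 40044377 to 40044436, had log2 signals of 13.40, 13.12, 13.32 and 13.59 in hypomorph pools and of 13.52, 13.43, 13.71 and 13.42 in wild type pools. It was lower in the hypomorph on 3 arrays and higher on the array of replicate 4, with a log2 ratio of -0.16 ± 0.25 (adjusted p = 0.243), and was not called. The ratio of the brighter probe exceeded that of the dimmer on each array, by 0.49 ± 0.14 in log2, a difference that was 0.21 with processed signals, 0.22 under a loess span of 0.1 and 0.91 under median centring. No direction for Sftpa1 holds across both probes. Between Sftpa1 and Sftpd in gene order lies Mbl1, which encodes a mannose-binding collectin of plasma, with a log2 ratio of -0.17 ± 0.11 (adjusted p = 0.0689).

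Sftpc encodes surfactant protein C, a short membrane-bound peptide made by type 2 cells. Its probe A_51_P328001 spans 69256172 to 69256432 on the minus strand of chromosome 14 in mm8. It was saturated in Cy5, the hypomorph channel, on 4 of 4 arrays. Its raw mean signals there were 615392, 615424, 615035 and 613700, at the scanner's limits of 615233, 615266, 614878 and 613543. In Cy3, the wild type channel, they were 141382, 149275, 183652 and 152330, which is between 22.4% and 29.1% of the Cy3 limit. In all, 4 to 8 spots on an array were saturated, and Sftpc was the only member among them. The hypomorph level of Sftpc is therefore known only as a lower bound.

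After normalization within and between arrays Sftpc had log2 signals of 18.41, 18.52, 18.46 and 18.46 in hypomorph pools, against 18.16, 17.88, 18.03 and 17.94 in wild type pools. Each hypomorph pool lay above each wild type pool. The log2 ratio was 0.46 ± 0.17 under a loess span of 0.3 (limma, adjusted p = 0.0078). With all hypomorph signals clipped, the SD and p do not measure the spread between hypomorph pools. No minimum fold is drawn from this value. The median log2 ratio of the 98 probes with a mean log2 signal above 17 was 0.59 under the same normalization. The sign of the Sftpc value also turned with the processing, to -0.10 with processed signals (adjusted p = 0.33) and to -0.11 when the loess span was 0.1 (adjusted p = 0.176), and a ratio below 0 at a saturated spot gives no fold. Median centring gave 1.5. The direction of Sftpc is not settled by these values.

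Sftpb encodes surfactant protein B, without which lamellar bodies do not form normally and newborn mice cannot breathe. Its probe A_51_P269134 spans 72236698 to 72239269 on chromosome 6 (mm8, plus strand). The log2 signals were 13.33, 13.86, 13.63 and 13.63 in hypomorph pools and 13.45, 13.64, 13.34 and 13.35 in wild type pools. The hypomorph was higher on 3 arrays and lower on that of replicate 1. The log2 ratio was 0.12 ± 0.22 (n = 3, adjusted p = 0.349) with the marked spot left out and 0.17 ± 0.20 with it kept (95% interval -0.14 to 0.48, adjusted p = 0.154), and Sftpb was not called. It was called without replicate 1, at 0.25, and under median centring, at 0.49 (adjusted p = 0.000879).

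Napsa encodes napsin A, an aspartic protease that trims the SP-B and SP-C precursors. Its probe A_51_P146149 lies on chromosome 7, 44453382 to 44453791 in mm8. Hypomorph pools had log2 signals of 15.10, 15.11, 15.19 and 15.18, and wild type pools had 15.21, 15.26, 15.34 and 15.29. The groups did not overlap and the ratio was below 0 on 4 of 4 arrays, yet the difference was small, -0.13 ± 0.03 in log2, and missed the threshold (95% interval -0.17 to -0.08, adjusted p = 0.0617). Under a loess span of 0.1 and under array weights it was called, at -0.16 and -0.14, and median centring turned it to 0.43 (adjusted p = 0.000853).

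**Figure D2:**
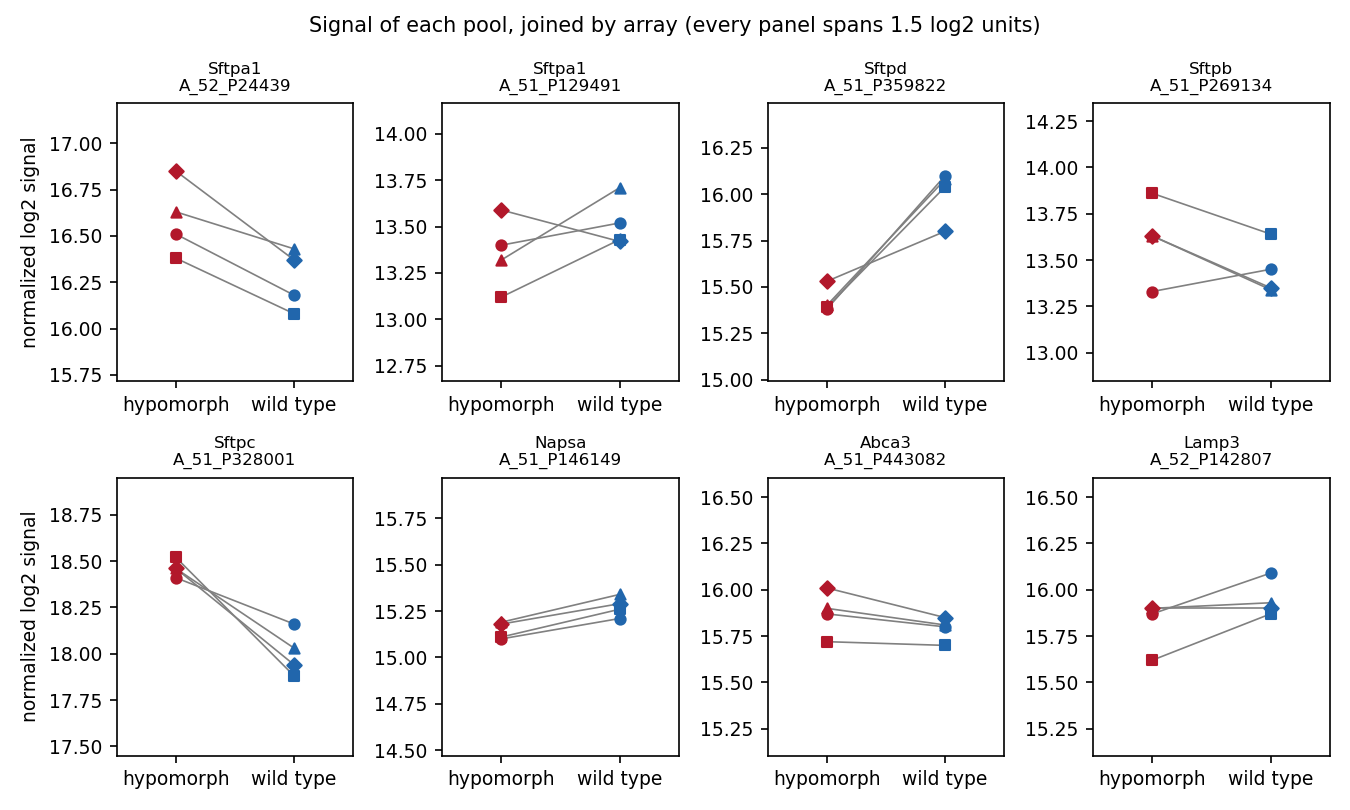
Normalized log2 signal (y axis) of hypomorph pools (left, red) and wild type pools (right, blue) for 8 member probes, with lines joining the pools of an array. Circle, square, triangle and diamond are replicates 1 to 4, marked spots are kept, and the panels share a span of 1.5 log2 units with different origins. Hypomorph pools lie below wild type pools for Sftpd and, by less, for Napsa, and above them for Sftpc, whose hypomorph points are saturated.

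Abca3 encodes the lipid pump of the lamellar body membrane, and its 4 probes on chromosome 17 spread from lower to higher. The 2 brighter probes lie close together. A_51_P443082, at 24137743 to 24137801 in mm8, had log2 signals of 15.87, 15.72, 15.90 and 16.01 in hypomorph pools against 15.80, 15.70, 15.81 and 15.85 in wild type pools, a log2 ratio of 0.08 ± 0.06 (95% interval -0.02 to 0.18, adjusted p = 0.208). It was not called, although under median centring it was, at 0.73 (adjusted p = 2.39e-05). A_52_P91265, at 24137076 to 24137135, had 14.68, 14.46, 14.69 and 14.62 in hypomorph pools against 14.43, 14.21, 14.30 and 14.28 in wild type pools. Those groups did not overlap, and the probe rose by 0.31 ± 0.07 in log2 ratio, 1.24-fold (adjusted p = 0.0074, marked on 3 arrays), and was called under 17 of 18 alternatives.

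Per the file headers' columns, each slide was read at a high and a low gain and bright spots were taken from the low one. The Abca3 probe A_52_P91265 had its Cy5 signal from the low-gain scan and its Cy3 signal from the high-gain scan on 4 of 4 arrays, whereas A_51_P443082 had both from the low-gain scan. Among the 746 probes in that mixed state with a brightness between 14 and 15, the median log2 ratio was 0.00 and 6.43% were at or above 0.31. Among the 102 of the same brightness range with both channels from the low-gain scan the median was -0.21. The probe A_51_P443082, at a brightness of 15.84, lies outside that range and cannot be set against this median. A channel's own signal decides its scan, so at a fixed brightness the gain state sorts probes by their ratio. The medians of these states therefore differ by selection and cannot show an effect of the gain. The part of the gain setting in the Abca3 values was not tested.

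The dimmer Abca3 probes lie at lower coordinates. A_51_P427317, at 24111612 to 24112074, had a log2 ratio of -0.01 ± 0.06 (95% interval -0.11 to 0.08, adjusted p = 0.82). A_52_P255864, at 24110865 to 24110924, carries the accession of another transcript, AK089316. Its log2 signals were 6.87, 6.64, 6.60 and 6.84 in hypomorph pools against 7.04, 7.02, 6.70 and 7.03 in wild type pools. It fell by 0.21 ± 0.12 on the log2 scale, 1.16-fold lower (adjusted p = 0.0438), and was the only call with marked spots left out. The call was lost without replicate 2, 3 or 4 (adjusted p = 0.147, 0.0835 and 0.0995). The probes of Abca3 therefore gave no common direction.

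Lpcat1 encodes the acyltransferase that makes the disaturated phosphatidylcholine of surfactant. Its probe A_51_P405089 lies on chromosome 13, 73981747 to 73981806 in mm8. Its log2 signals were 15.33, 15.33, 15.44 and 15.33 in hypomorph pools against 15.17, 15.26, 15.27 and 15.22 in wild type pools, so the hypomorph was the higher on each array and the groups did not overlap. The log2 ratio was 0.15 ± 0.03 (n = 3, adjusted p = 0.0901) with the marked spot left out and 0.13 ± 0.05 with it kept (adjusted p = 0.0739), and Lpcat1 was not called. Under median centring it was, at 0.73 (adjusted p = 0.000108).

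Lamp3 encodes a lysosome-associated membrane protein found in lamellar bodies. Its 4 probes on the minus strand of chromosome 16 had mean ratios between -0.20 and -0.05. The brightest, A_52_P142807 at 19567242 to 19567301, had log2 signals of 15.87, 15.62, 15.90 and 15.90 in hypomorph pools against 16.09, 15.87, 15.93 and 15.90 in wild type pools. Its log2 ratio was -0.15 ± 0.14 (n = 3, adjusted p = 0.159) and it was not called. It was called lower under a loess span of 0.1 (-0.30, adjusted p = 0.0396) and in the deposited series table (-0.27, adjusted p = 0.0419), and higher under median centring (0.54, adjusted p = 0.000687). A_52_P104593, at 19614543 to 19614602, had 9.86, 9.63, 9.68 and 9.81 in hypomorph pools against 10.11, 9.98, 9.84 and 9.87 in wild type pools. At -0.20 ± 0.13 it missed the threshold with marked spots left out (adjusted p = 0.0504) and passed it with them kept (adjusted p = 0.0483). Without any 1 of the 4 arrays its adjusted p was between 0.0508 and 0.18. A_51_P239376 (-0.14 ± 0.14, adjusted p = 0.13) and A_52_P54647 (-0.05 ± 0.11, adjusted p = 0.527) were not called.

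Slc34a2 encodes the sodium-dependent phosphate transporter that takes up the phosphate released from surfactant phospholipid. Its probes lie close together on chromosome 5. A_51_P221256, at 53359130 to 53359189 in mm8, had log2 signals of 15.24, 15.07, 15.33 and 15.46 in hypomorph pools against 15.20, 15.15, 15.19 and 15.38 in wild type pools, a log2 ratio of 0.05 ± 0.09 (95% interval -0.10 to 0.19, adjusted p = 0.511). A_52_P255099, at 53357996 to 53358055, had 13.12, 13, 13.12 and 13.26 in hypomorph pools against 13.31, 13.34, 13.19 and 13.32 in wild type pools, a log2 ratio of -0.16 ± 0.13 (adjusted p = 0.0898). Neither probe was called, although the brighter exceeded the dimmer on each array by 0.21 ± 0.05 in log2 ratio, a difference of 0.12 to 0.47 over 7 ways of processing. Under median centring A_51_P221256 was called higher, at 0.61 (adjusted p = 8.99e-05).

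Across arrays, the members' ratios differed in level. The array of replicate 2 gave the lowest ratio for 11 of the 17 probes, and that of replicate 4 gave the highest for 8 and the lowest for none. The median over the member probes was -0.10, -0.16, -0.01 and 0.03 for replicates 1 to 4, where the median of all probes was between -0.01 and 0.00 on each. Probes of a gene share its RNA, and all members of an array share its pools, so these 17 values are not independent.

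The members are among the brightest probes of the array. Of their 17 probes, 8 had a brightness above 15, from 8 of the 9 genes, which 3.38% of all 31371 probes had. Among the 1061 probes above 15, 51.4% were called with marked spots kept, 37.9% higher and 13.5% lower. Taken over all probes, the median log2 ratio was 0.00 at a brightness of 15 to 16, 0.29 at 16 to 17 and 0.59 above 17. Under a loess span of 0.1 these medians were -0.07, 0.05 and 0.17, and under median centring 0.58, 1.05 and 1.49. The Sftpa1 probe A_52_P24439 (0.33) was near the median of its range of brightness, while Sftpd (-0.58) lay below the 0.00 of its own. Sftpc is saturated in Cy5, so its ratio is not known and cannot be placed against its range. The part of this drift in the members' ratios was not tested.

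**Figure D3:**
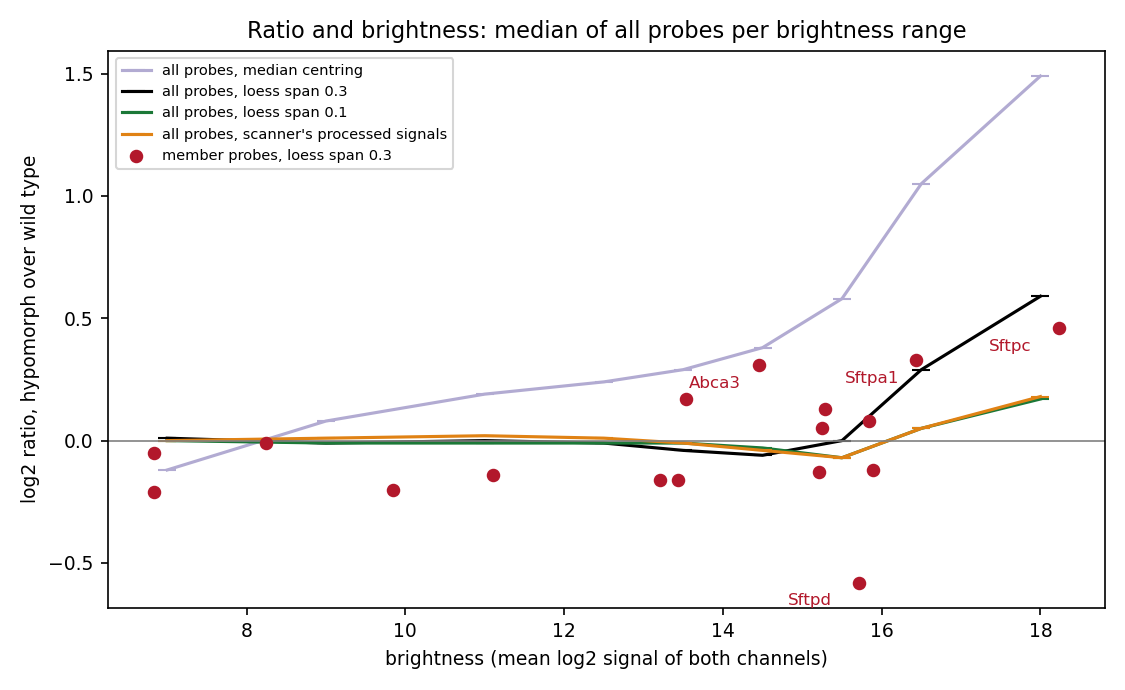
Log2 ratio (y axis) against brightness, the mean log2 signal of both channels (x axis). Lines join the median of all probes in each range of brightness under 4 ways of processing, and red points are the 17 member probes under a loess span of 0.3. The loess line climbs to 0.59 above a brightness of 17, the Sftpa1 probe at 0.33 lies near it and Sftpd lies at -0.58. The Sftpc point is saturated in the hypomorph channel, and its ratio gives neither a direction nor a minimum fold.

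**Figure D4:**
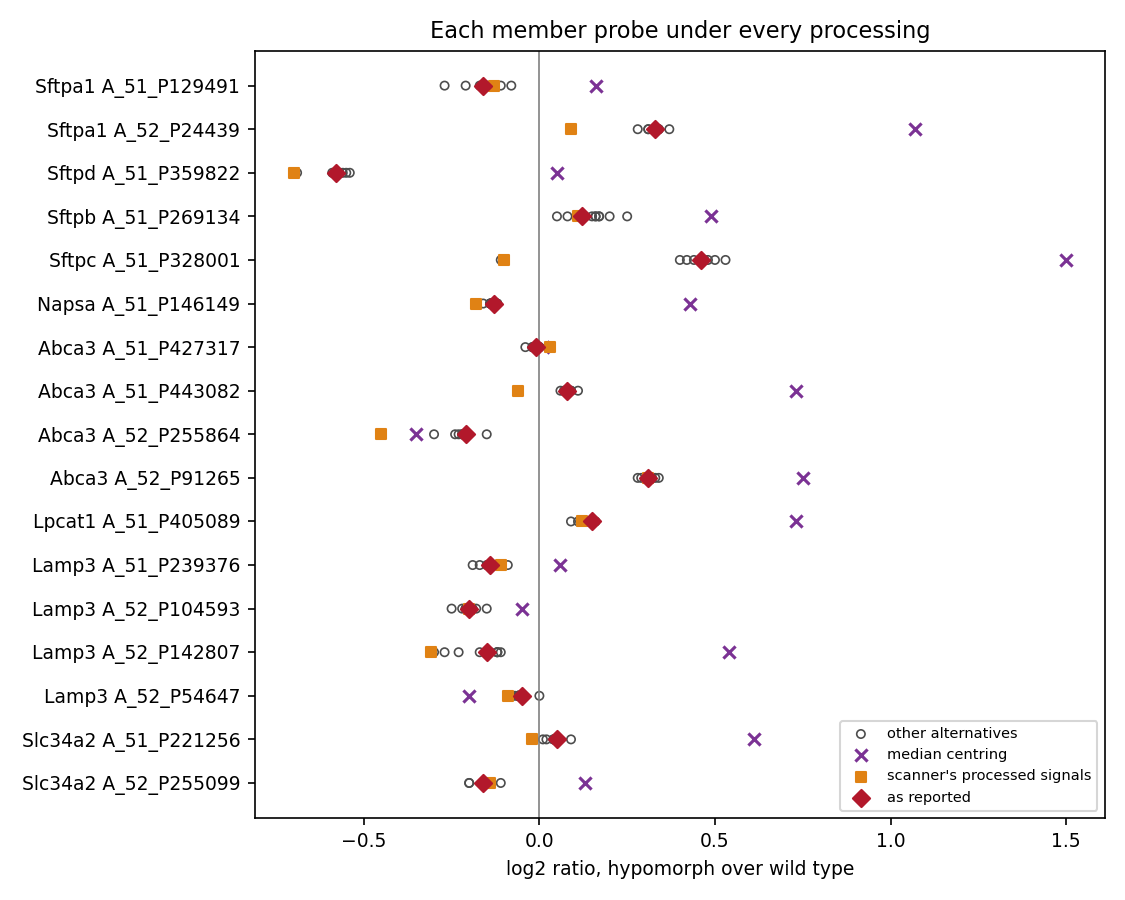
Log2 ratio of each member probe (rows) as reported (diamonds), with median centring (crosses), with the scanner's processed signals (squares) and under the other alternatives (circles). Sftpd stays between -0.70 and -0.54 except under median centring (0.05), and Sftpc ranges from -0.11 to 1.5.

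Fgf8 itself, measured by 1 probe well above background, had a log2 ratio of -0.18 ± 0.11 (adjusted p = 0.0572), below 0 on 4 of 4 arrays. The sources used here do not place that probe relative to the altered alleles. To set the members among related genes, 181 further genes were taken in 12 lists by role or cell type, each gene by its brightest probe. Of 161 tested, 27 were higher and 45 lower (72 called), and with 1 array left out the count was 19 (replicate 2), 30 (replicate 3), 41 (replicate 4) or 67 (replicate 1). Over all genes the share called in those fits was 6.04%, 8.73%, 17.2% and 28%. Over all 20623 genes 26.6% were called, 13.6% higher and 13% lower. With median centring, which moves the median of all genes to 0.13, 52.6% were called, 40.6% higher and 12% lower. That shift grew with brightness. Over all probes, with marked spots kept, the median was 0.24 at a brightness of 12 to 13, 0.29 at 13 to 14 and 0.38 at 14 to 15. It was 0.58 at 15 to 16 and 1.05 at 16 to 17. A value near or above 0 under median centring can therefore still lie below probes of like brightness. The share of all genes called was not taken for processed signals or for averaged probes. Of 42 called genes named in the next paragraphs, 15 remained called without any 1 array, among them Cept1, Acsl1, Hps1, Pon1, Cebpd, Colec10 and Aqp5, and 16 did without replicate 2. Srebf1, Psap, Scgb1a1 and Esrp1 lost the call whichever array was left out.

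Genes of surfactant lipid synthesis were 2 higher, 8 lower and 21 not called of 31 tested, with a median log2 ratio of -0.03, and median centring turned this to 17 higher and 0 lower (1 and 7 with processed signals). Without replicate 2 there were 3 calls. Chpt1 (-0.33 ± 0.07, adjusted p = 0.00708) and Cept1 (-0.49 ± 0.11, adjusted p = 0.00364), which catalyse the last step of phosphatidylcholine synthesis, fell, as did the phosphatidate phosphatase Lpin1 (-0.42 ± 0.08, n = 3, adjusted p = 0.00897). Acsl1, which activates long-chain fatty acids, fell (-0.37 ± 0.03), as did the lipase Lpl (-0.37 ± 0.08). Lpl stood at 0.01 under median centring, beside a median of 0.38 for probes of its brightness. The rate-limiting enzyme Pcyt1a was at -0.03 ± 0.13 (n = 3, adjusted p = 0.747), the fatty acid synthase Fasn at 0.02 ± 0.10 (adjusted p = 0.816) and the desaturase Scd1 at -0.18 ± 0.14 (adjusted p = 0.0845), none of them called. Srebf1, a regulator of lipid synthesis testable only with marked spots kept, was at -0.17 ± 0.08 (adjusted p = 0.0459).

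Genes of surfactant handling, that is processing, storage, secretion and clearance, were 5 higher, 13 lower and 11 not called of 29 tested, with a median of -0.08. The split was 14 higher and 1 lower under median centring, 4 and 5 with processed signals, and 5 and 8 with each gene's probes averaged. Without replicate 2 there were 2 calls. Abcg1, a cholesterol exporter, fell (-0.37 ± 0.09, adjusted p = 0.0067), and Hps1, needed to build lysosome-related organelles, rose (0.42 ± 0.04, adjusted p = 0.00296). Pgc, the zymogen of a pepsin-like protease made by type 2 cells, rose (0.44 ± 0.14, adjusted p = 0.00708, and 0.0505 without replicate 2). Prdx6, a peroxiredoxin with phospholipase activity, fell (-0.24 ± 0.07). It stood at 0.04 under median centring, beside a median of 0.24 for probes of its brightness. The surfactant-sensing receptor Adgrf5 was at -0.25 ± 0.17 (adjusted p = 0.0468). Ctsh, a protease of SP-B processing, was at 0.29 ± 0.10 with marked spots kept (adjusted p = 0.0123), at a brightness of 17.65.

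Other genes typical of type 2 cells were 5 higher, 10 lower and 8 not called of 23 tested, with a median of -0.17, and under median centring 14 higher and 3 lower (3 and 8 with processed signals). Without replicate 2 there were 6 calls. Pon1, a paraoxonase, fell and was 2.35-fold lower (-1.23 ± 0.18, n = 3, adjusted p = 0.0018, and -0.88 under median centring). The cytokine Il33 (-0.60 ± 0.12, n = 3) and the chitinase-like Chil1 (-0.53 ± 0.18) fell. So did Scnn1a (-0.52 ± 0.10), a subunit of the sodium channel that clears lung fluid. Scnn1a stood at -0.01 under median centring, beside a median of 0.38 for probes of its brightness. The chemokine Cxcl15 fell (-0.35 ± 0.19, adjusted p = 0.0245). It stood at 0.32 under median centring, beside a median of 0.58 for probes of its brightness. Cbr2, a carbonyl reductase also of club cells, was called higher (0.45 ± 0.07) at a brightness of 17.33, where the processed signals gave 0.07. Muc1 (0.03 ± 0.10) and Etv5 (0.15 ± 0.13), a transcription factor downstream of FGF signalling, were not called. Lyz2, testable only with marked spots kept, was at 0.29 ± 0.20 (adjusted p = 0.0424), and its other probe was at -0.54.

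Regulators of type 2 cells were 9 higher, 4 lower and 22 not called of 35 tested, with a median of 0.11. The split was 26 higher and 1 lower under median centring, 6 and 2 with processed signals, and 5 and 5 with each gene's probes averaged. Without replicate 2 there were 4 calls. Cebpd, a transcription factor induced by glucocorticoid, fell and was 1.92-fold lower (-0.94 ± 0.10, adjusted p = 0.00113, and -0.23 under median centring). Foxp2, a transcription factor of the growing lung, rose (0.39 ± 0.11, with its other probe at 0.38). The brightest probes of Nfib (0.34 ± 0.06) and Foxp1 (0.29 ± 0.05), others of that kind, were called higher, but the other probes were at -0.21 to 0.14 for Nfib and -0.16 to 0.34 for Foxp1. The coactivator Wwtr1 fell (-0.41 ± 0.01, n = 3). It stood at 0.01 under median centring, beside a median of 0.38 for probes of its brightness. Nkx2-1 was called higher (0.19 ± 0.09, adjusted p = 0.0392) and lost the call without replicate 2, 3 or 4 (adjusted p = 0.14, 0.137 and 0.113). Foxa2 (-0.02 ± 0.12), Gata6 (0.08 ± 0.11), Cebpa (0.13 ± 0.14) and the glucocorticoid receptor Nr3c1 (-0.18 ± 0.11) were not called. Relatives of the surfactant proteins (other collectins, saposins and BRICHOS proteins) were 4 higher and 0 lower of 12, with a median of 0.09, and 8 higher and 0 lower under median centring. They included the collectin Colec10 (0.69 ± 0.12, adjusted p = 0.00175), the saposin precursor Psap (0.17 ± 0.07) and Gkn2 (0.39 ± 0.14), and without replicate 2 there was 1 call.

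Markers of other lung cells were few, and most were not called. Type 1 cell markers were 0 higher and 2 lower of 6, with Aqp5, a water channel, at -0.66 ± 0.06 (adjusted p = 0.00135) and Clic5 at -0.45 ± 0.04 (n = 3, other probes at -0.42 to 0.01), against Ager at -0.15 ± 0.05 (n = 3) and Pdpn at 0.00 ± 0.09, which were not called. Under median centring 4 were higher and 0 lower, with Clic5 at 0.15, beside a median of 0.58 for probes of its brightness. Club cell markers were 1 higher and 1 lower of 4, Cbr2 and the secretoglobin Scgb3a1 (-0.86 ± 0.58, adjusted p = 0.0296), and under median centring 3 higher and 1 lower (0 and 0 with processed signals), while Scgb1a1 was at -0.16 ± 0.06 with marked spots kept. Epithelial markers were 2 higher and 0 lower of 9, Cdh1 (0.23 ± 0.09) and Esrp1 (0.14 ± 0.03), with Epcam at 0.17 ± 0.09 not called. Of these 9 genes, called or not, 4 had ratios above 0 and 5 below. The epithelial calls were 8 higher and 0 lower under median centring, and 0 higher and 1 lower with processed signals. Without replicate 2 or 3 the epithelial list had 0 calls.

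Macrophage markers were 0 higher and 3 lower of 7, Marco (-0.49 ± 0.20), Adgre1 (-0.21 ± 0.10, other probe 0.22) and Cd14 (-0.20 ± 0.04), with Cd68 at 0.14 ± 0.05 not called, and 2 higher and 1 lower under median centring. Endothelial markers were 1 higher and 2 lower of 4, Tek (0.23 ± 0.10), Kdr (-0.29 ± 0.10) and Cdh5 (-0.23 ± 0.14), with Pecam1 at -0.07 ± 0.11 not called. Their other probes were at -0.22 for Tek, 0.01 for Kdr, 0.13 for Cdh5 and -0.48 for Pecam1. With each gene's probes averaged 0 endothelial markers were higher and 1 lower, and under median centring 3 were higher and 0 lower. Mesenchyme had Pdgfra lower (-0.29 ± 0.09) of 4, with Col1a1 at 0.19 ± 0.16 not called, and 1 higher and 0 lower under median centring. Of the red cell markers Alas2 was called lower (-0.22 ± 0.07). It stood at 0.25 under median centring, beside a median of 0.38 for probes of its brightness. The globin gene Hba-a1, chosen after its values were seen and testable only with marked spots kept, was called higher (0.69 ± 0.04, adjusted p = 0.000888) at a brightness of 18.04. Without replicate 2 the macrophage, endothelial, mesenchyme and red cell lists had 0 calls each. The medians were -0.09 for type 1, 0.07 for club, 0.00 for epithelial, -0.09 for macrophage, -0.15 for endothelial and 0.04 for mesenchyme genes. The part of cell composition in the members' ratios was not tested.

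**Figure D5:**
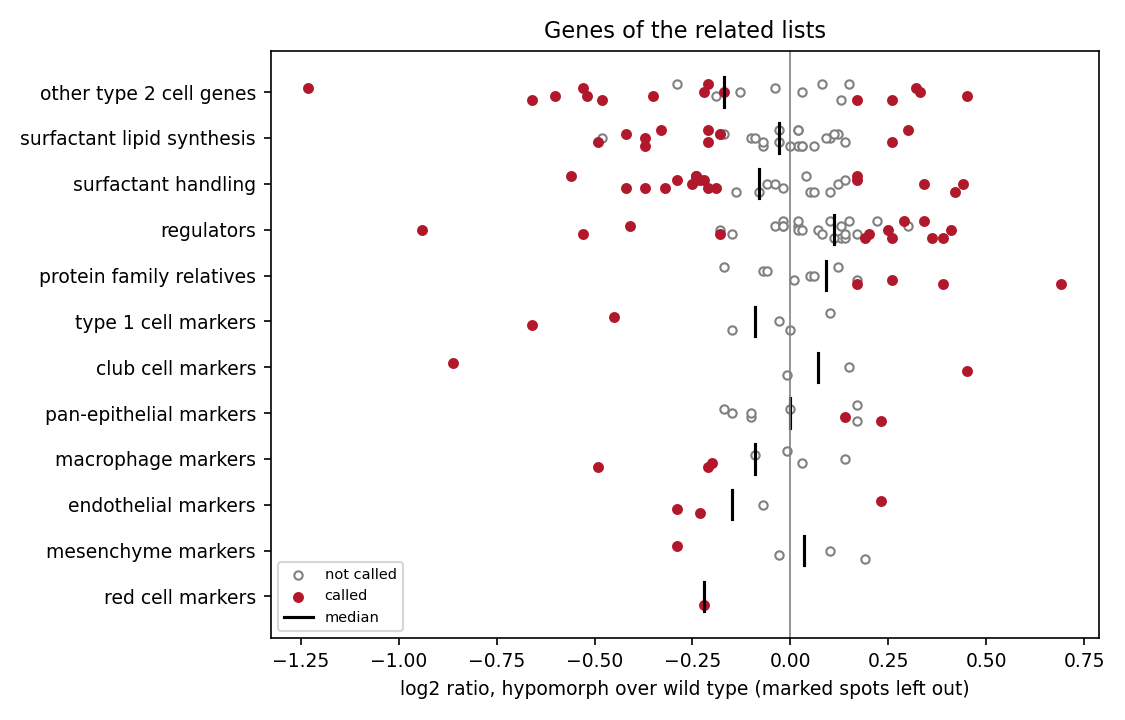
Log2 ratio of hypomorph over wild type (x axis) of each gene tested in the 12 related lists (rows), with marked spots left out. Filled points were called, open points were not, and bars are list medians. The lists of surfactant handling and of other type 2 cell genes have medians of -0.08 and -0.17, the regulators have 0.11, and Pon1 lies lowest at -1.23.

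Among called genes with values on 4 arrays, those nearest to Sftpd by Euclidean distance between the 4 log2 ratios were Plscr2 (distance 0.11, log2 ratio -0.56 ± 0.18), P4ha2 (0.14, -0.58 ± 0.13) and Dtna (0.17, -0.59 ± 0.15). Their brightnesses were 11.70, 13.60 and 12.28. Neighbours of Sftpc are not given, since its ratios are clipped by saturation.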

How the data were processed

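RNA of 4 hypomorph and 4 wild type pools was read on 4 two-colour Agilent arrays on 1 slide in 1 scan. The replicate numbers in the labels name the arrays, so the ratio pairs the pools of an array. The design text calls the 4 pools biological repeats. The submitters' processing notes name Agilent Feature Extraction 9.5.1 as the image software. Per the file headers, the deposited mean and background intensities of both channels are its raw output, and its processed intensities are background-subtracted and dye-normalized. The deposited log10 ratio column, red over green, was not tested. The deposited series table holds log2 ratios that equal log2 of processed red over green (correlation 1, column medians -0.02, 0.00, -0.05 and -0.02). Spike-in slopes were between 0.690 and 0.718, so ratios are compressed. Of the 43379 non-control spots on an array, 32731 to 34519 were well above background for hypomorph and 32491 to 33744 for wild type.

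Intensities were corrected with normexp (offset 50) and loess-normalized (span 0.3, control spots weight 0) in limma 3.58.1 under R 4.3.3. For the signals of single pools, the mean of both channels was then quantile-normalized between arrays. The ratios tested were taken before that step. Probes well above background in 1 channel or more on at least 3 arrays, with values on at least 3, were tested against 0. Probe names were updated through RefSeq accessions for 24375 of 41174 probes, and positions are the files' own, in mm8. All 17 member probes were named. From each of the 12 lists the text names the 3 called genes with the smallest p (5 for lipid synthesis, other type 2 genes and regulators) and the genes that define it, and for Sftpd the 3 nearest called genes. The members and lists were chosen with earlier results of these data known. On 10 simulated tables of 27156 probes with 200 changed, 76.1% of 1.5-fold and 92.8% of 2-fold changes were called, with 4.12% of calls false and 0 of the wrong sign. The simulated noise was independent between probes and had no dye effect or drift with brightness. In the data 24.9% of probes were called, far more than were changed in the simulation. Its shares of false and wrong-sign calls therefore do not carry over to the calls reported here. With 4 arrays, their number limits the precision. The alternatives changed the intensities, background correction, normalization, filter, saturated or marked spots, variance model, array weights, pairing and replicates.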

Additional observations from a re-analysis of the deposited data

Results flagged for a closer look

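Of 72 sets of 4 values checked, 6 had 1 array far from the other 3, where chance gives about 1 in 20. Sftpd had -0.27 for replicate 4, against -0.72 to -0.66 on the others. Prdx6 had -0.13 for replicate 1, against -0.28 to -0.27. Scnn1a had -0.37 for replicate 4, against -0.58 to -0.57. Foxp2 had 0.56 for replicate 1, against 0.33 to 0.35. Epcam had 0.04 for replicate 4, against 0.21 to 0.24. Esrp1 had 0.10 for replicate 2, against 0.15 to 0.16. All are log2 ratios of hypomorph over wild type, and all kept the sign of the other arrays.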

How the results depend on the processing

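With marked spots left out, the count of member probes called (1) became 8 with median centring, 6 with marked spots kept or background marks ignored, 4 with a loess span of 0.1, 4 with the deposited series table, which carries no marks and so tests 17 probes in place of 13 (the processed signals it equals gave 1 with marked spots left out), 3 with array weights, 2 with scaling between arrays or the stricter filter, and 0 with an intensity trend. Without the replicate block, that is with separate channels in place of paired ratios, it was 0. With marked spots kept, the count (6) became 11 with median centring, 2 without the replicate block and 1 with marked spots left out. Leaving out 1 array gave 0 to 2 calls for the first count and 3 to 6 for the second. The 72 list genes called became 47 with the processed signals and 19 to 67 without 1 array. The share of all probes called was taken only for median centring, for marked spots kept or left out, and for some fits without 1 array. Counts under the other settings cannot be set against such a share. Reversed were Sftpd (0.05), Napsa (0.43) and the Lamp3 probe A_52_P142807 (0.54) under median centring, and Sftpc under the processed signals or series table (-0.10) and a loess span of 0.1 (-0.11). Sftpd, Napsa and that Lamp3 probe lie at a brightness of 15 to 16, where all probes had a median of 0.58 under median centring. With saturated spots left out Sftpc has no value. The causes were not tested.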
